A study of Mus musculus with 4 samples.

Results

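The CXC chemokine ligands were followed in macrophages grown from mouse bone marrow that shared their culture with MC38, a line of mouse colon carcinoma cells. The 10 ligands were chosen by gene symbol from the 21878 genes listed, as a family proposed with earlier results of these data known, and all 10 were listed: Cxcl1, Cxcl2, Cxcl3, Cxcl5, Cxcl9, Cxcl10, Cxcl12, Cxcl14, Cxcl16 and Pf4. Of these, 7 passed the filter on low counts and were tested, together with 12494 genes in all. The study compared 2 libraries of anti-Act1 macrophages with 2 libraries of wild type (WT) macrophages, to ask how less Act1 in macrophages changes their response to tumor cells. The anti-Act1 mice were described as a macrophage-specific knockdown of Act1, the adaptor protein of the IL-17 receptors, and the promoter that drives it was not given in the sources used here. Both groups were of the C57BL/6 strain and labelled as 8 weeks old, were grown with M-CSF, the growth factor of macrophages, and were kept with the MC38 cells behind a porous insert, so no library shows macrophages without tumor cells. The labels give 48 h of coculture for all 4 libraries, and the study's text gives a shorter time. Nothing in the labels says whether the libraries of a group came from separate mice, so the p-values measure the spread between these libraries.

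Chemokines are small secreted proteins that guide leukocytes along gradients, and the CXC family is named for the residue between its first pair of cysteines. Members with the tripeptide ELR before that motif bind Cxcr2 and draw neutrophils into inflamed tissue. Cxcl9 and Cxcl10 lack it, are induced by interferons and attract T cells and NK cells through Cxcr3. Cxcl12, Cxcl14, Cxcl16 and Pf4 are usually described as made without an inflammatory stimulus in the cells that produce them, and they are called constitutive here. Macrophages are a main source of several of these ligands, and transcripts of the ELR ligands are known to be short-lived, with AU-rich elements in their 3′ untranslated regions. Act1 is known to lengthen the life of such transcripts after IL-17.

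Of the 10 ligands, 7 lie on chromosome 5, where Cxcl5, Pf4, Cxcl3, Cxcl1 and Cxcl2 follow each other in that order and Cxcl9 and Cxcl10 form a separate pair. Cxcl12 lies on chromosome 6, Cxcl16 on chromosome 11 and Cxcl14 on chromosome 13. RefSeq promoter windows on GRCm38.p6, from 250 bases before to 50 bases after the annotated start, were found for 8 ligands. Stretches of 5 windows are shown because they hold the motifs of the ligands that rose, beside the same stretch of their neighbor Pf4, which fell. They run 5′ to 3′ on the strand of the gene, with matches to GGNNTTTCC (κB-like, the kind of sequence NF-κB binds) or AAANNGAAA (like the interferon-stimulated response element, ISRE) on either strand in capitals.
Cxcl1, chr5:90891135-90891204, plus strand, 110 to 41 bases before the start: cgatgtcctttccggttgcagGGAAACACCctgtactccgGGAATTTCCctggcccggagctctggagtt
Cxcl2, chr5:90903789-90903858, plus strand, 110 to 41 bases before the start: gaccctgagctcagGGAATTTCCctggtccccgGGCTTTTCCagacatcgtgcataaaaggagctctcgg
Cxcl3, chr5:90785991-90786060, plus strand, 110 to 41 bases before the start: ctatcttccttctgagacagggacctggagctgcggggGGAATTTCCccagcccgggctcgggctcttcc
Cxcl10, chr5:92349030-92349109, minus strand, 220 to 141 bases before the start: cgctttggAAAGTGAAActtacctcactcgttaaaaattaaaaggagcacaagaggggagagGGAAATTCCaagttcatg
Pf4, chr5:90772325-90772394, plus strand, 110 to 41 bases before the start: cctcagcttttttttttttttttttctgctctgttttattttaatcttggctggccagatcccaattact

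The κB-like letters were found in 5 of the 8 ligand windows, Cxcl1, Cxcl2, Cxcl3, Cxcl9 and Cxcl10, and in 5.82% of all 32851 windows. The identical match GGAATTTCC stood 70 bases before the start of Cxcl1, 96 before that of Cxcl2 and 72 before that of Cxcl3. A further match stood in the windows of Cxcl1 and Cxcl2, and 2 matches in that of Cxcl9. The ISRE-like letters were found in the windows of Cxcl10 and Cxcl14 and in 10.6% of all windows. The AP-1-like letters TGANTCA stood in the windows of Cxcl9 and Cxcl10 (7.81% of all windows), the C/EBP-like letters TTGCNNAA in that of Pf4 (10.8%) and the TATA letters TATAAA in those of Cxcl3 and Cxcl9 (13.6%). The window of Cxcl12 held none of these letters, but the end of that window was not found in the GENCODE transcript used for Cxcl12. A match describes the letters only, since binding was not measured.

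**Figure D1:**
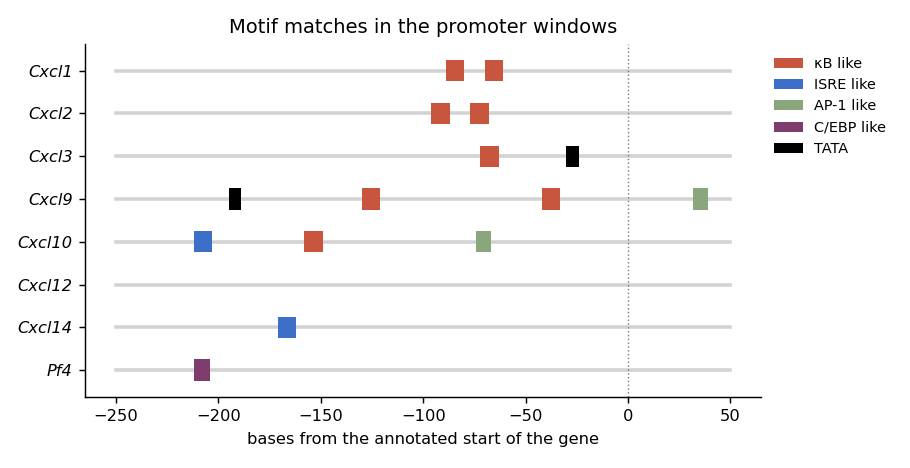
Positions of the motif matches in the promoter windows of 8 CXC ligands, with distance from the annotated start in bases on the x axis and 1 line per gene. κB-like matches lie within 160 bases of the start in Cxcl1, Cxcl2, Cxcl3, Cxcl9 and Cxcl10, and the lines of Cxcl12, Cxcl14 and Pf4 show none.

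The 3′ untranslated regions of the GENCODE M21 transcripts were searched for ATTTA, the core of AU-rich elements, and TTATTTATT, a longer form bound by tristetraprolin, a protein that promotes mRNA decay. The densest 30 bases of the 3 ELR ligands that rose are shown, with ATTTA in capitals where copies can overlap.
Cxcl1, 79 to 108 bases after the stop codon: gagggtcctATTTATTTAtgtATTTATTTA
Cxcl2, 123 to 152 bases after the stop codon: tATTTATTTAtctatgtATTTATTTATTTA
Cxcl3, 181 to 210 bases after the stop codon: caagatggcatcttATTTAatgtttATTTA

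Cxcl2 held 11 copies of ATTTA in 734 bases, Cxcl1 held 7 in 592 and Cxcl3 held 5 in 645. These are 15.0, 11.8 and 7.75 copies per kb, and 0.284%, 0.563% and 2.44% of 17939 genes were at least as dense. TTATTTATT was present 4 times in Cxcl2, 2 times in Cxcl1 and 1 time in Cxcl3, in no other ligand, and in 6.88% of all genes. Cxcl10, which rose with them, had 2 copies of ATTTA in 729 bases, or 2.74 per kb, against a median of 1.2 per kb over all genes. Pf4, which fell, had 1 copy in 123 bases, or 8.13 per kb, denser than Cxcl3, with 2.03% of genes at least as dense. Cxcl5 had 5 copies in 1111 bases, or 4.5 per kb, and Cxcl14 had 0 in 1149.

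Before the ligands, the labels were checked. Traf3ip2, which encodes Act1, had 451 and 572 counts in the WT libraries and 595 and 428 in the anti-Act1 libraries, or 6.98 and 7.54 against 9.63 and 7.84 once scaled to the TMM-normalized library size (CPM). Both anti-Act1 values were thus above both WT values, and no fall of the transcript was seen (log2 fold change 0.27, SE 0.12, adjusted p = 0.117 by edgeR). Without anti-Act1 replicate 2, it was called higher (0.41, adjusted p = 0.0343). The libraries were not described as strand-marking, so these counts do not tell which strand of the gene was read. The direction of each difference below therefore rests on the labels. The groups also differed in the Y-linked gene Ddx3y, with 5741 and 7360 counts in WT and 0 and 0 in anti-Act1, so sex and genotype cannot be told apart. Total counts were 64199075 and 75062945 in WT and 61926229 and 55435063 in anti-Act1, so a count of 0 allows up to 3 counts, or 0.0395 to 0.0549 CPM, which covers counting error only. Macrophage markers were abundant in every library, with 8 genes summing to 24573 to 26257 CPM, and of these Itgam and Mertk were called lower in anti-Act1 and Cd14 higher, the latter not without WT replicate 2 (adjusted p = 0.0896) or anti-Act1 replicate 1 (0.0749). Of 6 markers of tumor epithelium, 5 had at most 10 counts in every library, and of these the keratins Krt8 and Krt18 were at 0 in all libraries. The other, Cdh1, had 29 and 19 counts in WT and 16 and 4 in anti-Act1 (adjusted p = 0.267 by edgeR). In these bulk samples, fewer cells of a type and less RNA per cell cannot be told apart.

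Among the 7 ligands tested, 4 were called higher in anti-Act1 macrophages, Cxcl1, Cxcl2, Cxcl3 and Cxcl10, where 10.9% of all genes tested were called higher. Pf4 was called lower, where 9.76% of all genes were. Cxcl14 and Cxcl16 were not called. The groups did not overlap for 6 of the 7 ligands, beside 57.1% of all genes, so that a lack of overlap was common among the genes tested. The median log2 fold change of the 7 was 0.95, and the quartiles over all genes tested were -0.12 and 0.13.

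**Figure D2:**
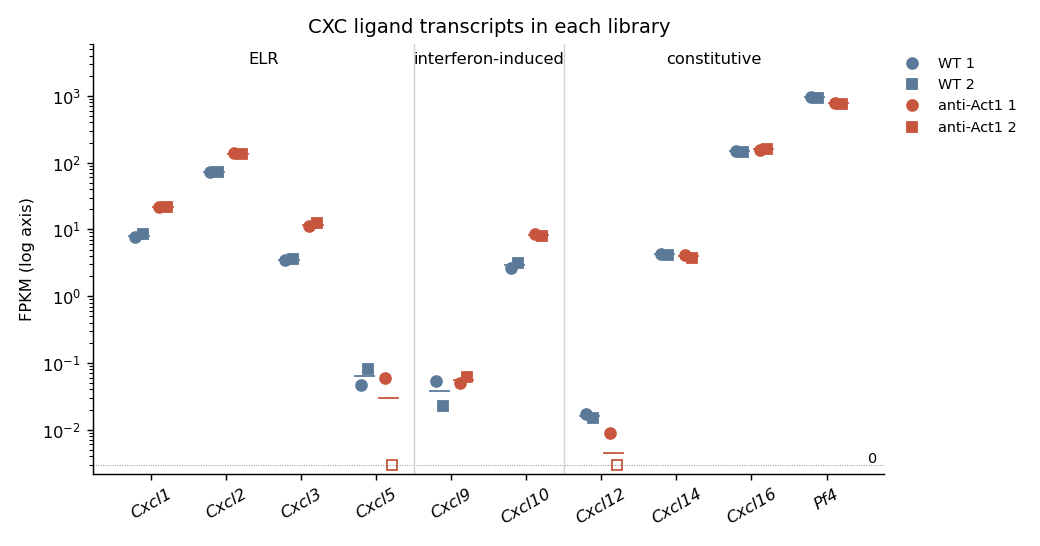
FPKM (counts scaled to gene length and library total, log axis) of the 10 CXC ligands in each of the 4 libraries, with short lines at the means of 2 libraries and open symbols at the dotted line for values of 0. Cxcl1, Cxcl2, Cxcl3 and Cxcl10 are higher in both anti-Act1 libraries, while Cxcl5, Cxcl9 and Cxcl12 stay below 0.1 FPKM.

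Compared per length, the ligands spanned a wide range. Pf4 was the highest in every library, with 928 to 973 FPKM in WT and 759.8 to 796 in anti-Act1, and its mean over the libraries ranked 50 among all genes. Cxcl16 followed with 144 to 159 FPKM over the 4 libraries and Cxcl2 with 72.2 to 142. In WT the next was Cxcl1 with 7.62 and 8.44 FPKM, and below it Cxcl14 with 4.35 and 4.11, Cxcl3 with 3.44 and 3.62 and Cxcl10 with 2.62 and 3.19, where no neighbors in this order overlapped. In anti-Act1 the order below Cxcl2 was Cxcl1 with 22 and 21.4 FPKM, Cxcl3 with 11.1 and 12.4, Cxcl10 with 8.51 and 7.86 and Cxcl14 with 4.2 and 3.70. Cxcl14 thus stood above Cxcl3 and Cxcl10 in both WT libraries and below them in both anti-Act1 libraries. Cxcl5, Cxcl9 and Cxcl12 had at most 10 counts in any library.

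The ELR ligands Cxcl1, Cxcl2 and Cxcl3 rose together. Cxcl1 (KC), a neutrophil attractant, had 467 and 605 counts in WT and 1299 and 1132 in anti-Act1. On the CPM scale these were 7.23 and 7.97 against 21 and 20.7, or 7.60 ± 0.526 against 20.9 ± 0.215 (SD, n = 2 each). Both anti-Act1 libraries were above both WT libraries, and the ratio of the means was 2.75. The log2 fold change was 1.46 with an SE of 0.09 (edgeR, adjusted p = 3.17e-17), which was the 101st highest of 12494.

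Cxcl2 (MIP-2), made in large amounts by activated macrophages, was the most abundant ELR ligand. Its counts were 5023 and 5928 in WT and 9514 and 7980 in anti-Act1, and its CPM rose from 77.9 ± 0.257 to 150.1 ± 5.60 (SD, n = 2 each). The WT libraries lay close together at 77.7 and 78.1 CPM, with the anti-Act1 libraries at 154 and 146. The ratio of the means was 1.93 and the log2 fold change was 0.95 with an SE of 0.05 (edgeR, adjusted p = 3.06e-19). Its fold change was thus smaller than that of Cxcl1, while 2.44% of the genes tested had a higher one.

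Cxcl3, the third ligand of Cxcr2 in this cluster, was less abundant and had the largest fold change of the ligands tested. It had 225 and 277 counts in WT and 697 and 698 in anti-Act1, or 3.48 and 3.65 CPM against 11.3 and 12.8. The groups were far apart relative to their spread, with means of 3.57 ± 0.118 and 12 ± 1.06 CPM (SD, n = 2 each) and a ratio of 3.37. The log2 fold change was 1.75 with an SE of 0.13 (edgeR, adjusted p = 1.57e-15). Transcripts of Cxcl2 and Cxcl3 share 5.75% and 6.31% of their stretches of 50 bases, so a small part of their reads could have been assigned to either or to neither, and the other ligands share none.

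Cxcl5 (LIX), the remaining ELR ligand of the 10, is made mainly by epithelial cells. It had 5 and 10 counts in WT and 6 and 0 in anti-Act1 and did not pass the filter. The groups overlapped, and the ratio of the summed counts scaled to depth was 0.475, with a 95% exact interval for counting error of 0.151 to 1.29. No difference of Cxcl5 was detectable at this depth.

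Of the interferon-induced ligands, Cxcl10 rose and Cxcl9 was near the floor. Cxcl10 (IP-10), an attractant of T cells, had 185 and 264 counts in WT and 580 and 480 in anti-Act1, or 2.86 and 3.48 CPM against 9.39 and 8.79. Every anti-Act1 value was above both WT values, with means of 3.17 ± 0.435 and 9.09 ± 0.425 CPM (SD, n = 2 each) and a ratio of 2.87. The log2 fold change was 1.52 with an SE of 0.14 (edgeR, adjusted p = 3.20e-12). Exons of Cxcl10 share 133 bases with Art3 on the opposite strand, which had at most 6 counts in any library.

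Cxcl9 (MIG), induced chiefly by interferon-γ, had 10 and 5 counts in WT and 9 and 10 in anti-Act1 and was not tested. The groups overlapped, and the ratio of the summed counts scaled to depth was 1.5 (95% exact interval 0.724 to 3.18, counting error only). The ratio of Cxcl10 of 2.87 lies within that interval, so these counts do not tell whether the 2 ligands differed in their response. In the fit without a filter, the log2 fold change of Cxcl9 was 0.59 with an SE of 1.02 (edgeR, adjusted p = 0.778).

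Among the constitutive ligands, Pf4 fell and none was called higher. Pf4 (platelet factor 4, CXCL4), a chemokine of platelet granules that macrophages also express, had 36737 and 40941 counts in WT and 28997 and 24766 in anti-Act1. Its CPM was 569 and 539 in WT and 469.6 and 454 in anti-Act1, with means of 554 ± 20.6 and 462 ± 11.3 (SD, n = 2 each). The groups did not overlap and the ratio was 0.833, with a log2 fold change of -0.26 and an SE of 0.05 (edgeR, adjusted p = 7.61e-05). This fall was small, since 10.9% of the genes tested had a lower fold change. With limma, on log2 of FPKM plus 1 and no filter, its call was lost (adjusted p = 0.0675).

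Ppbp, the neighboring platelet chemokine CXCL7, was not among the 10 ligands and was not counted in the ELR group here. It also fell, from 172 and 221 counts in WT to 81 and 96 in anti-Act1. Its log2 fold change was -0.87 with an SE of 0.22 (edgeR, adjusted p = 0.00245), and it was not called without anti-Act1 replicate 1 (adjusted p = 0.0711). Summed over 7 platelet and megakaryocyte markers, the libraries had 4.67 and 6.06 CPM in WT and 5.15 and 5.73 in anti-Act1, which overlapped. Of 4 markers tested, Tubb1 was called higher, but not without WT replicate 1 (adjusted p = 0.368), anti-Act1 replicate 1 (0.112) or anti-Act1 replicate 2 (0.0661), and 0 were called lower. Itga2b had 79 and 112 counts in WT and 58 and 45 in anti-Act1 (edgeR adjusted p = 0.162). Gp9 had 16 and 25 counts in WT and 6 and 7 in anti-Act1 (adjusted p = 0.151). Gp1ba, the most abundant of the list, had 167 and 215 against 161 and 184 (adjusted p = 0.685). Tubb1 went the other way, with 25 and 72 counts in WT and 87 and 73 in anti-Act1. With both in the sum, it does not show the lower values of Itga2b and Gp9. The part of platelet RNA in the values of Pf4 and Ppbp was not tested. Cxcl13 and Cxcl15 were at 0 in all libraries, and Cxcl17 had 1 count in all.

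Cxcl16 is a membrane-bound ligand of Cxcr6 that also takes up oxidized lipoprotein. It had 17469 and 19345 counts in WT and 17481 and 15826 in anti-Act1, or 270.4 and 255 CPM against 283 and 289.8. Its means of 263 ± 11 and 286 ± 4.78 CPM (SD, n = 2 each) did not overlap, but the log2 fold change of 0.13 with an SE of 0.05 was not called (edgeR, adjusted p = 0.0768). Without WT replicate 1 it was called higher (0.17, adjusted p = 0.0258). Its exons share 552 bases with Zmynd15 on the opposite strand, which had 1031 to 1618 counts per library, and without strand the reads of this stretch cannot be told apart.

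Cxcl14 is a ligand found in many epithelia and in some macrophages. It had 420 and 464 counts in WT and 391 and 308 in anti-Act1, or 6.5 and 6.11 CPM against 6.33 and 5.64. The groups overlapped, and the log2 fold change was -0.07 with an SE of 0.13 (edgeR, adjusted p = 0.761). Cxcl12 (SDF-1), a ligand of Cxcr4 made by stromal cells, had 4 and 4 counts in WT and 2 and 0 in anti-Act1. Its ratio scaled to depth was 0.297 with a 95% exact interval of 0.0307 to 1.49, so no difference was detectable. Of 7 fibroblast markers, 6 had at most 10 counts in every library.

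**Figure D3:**
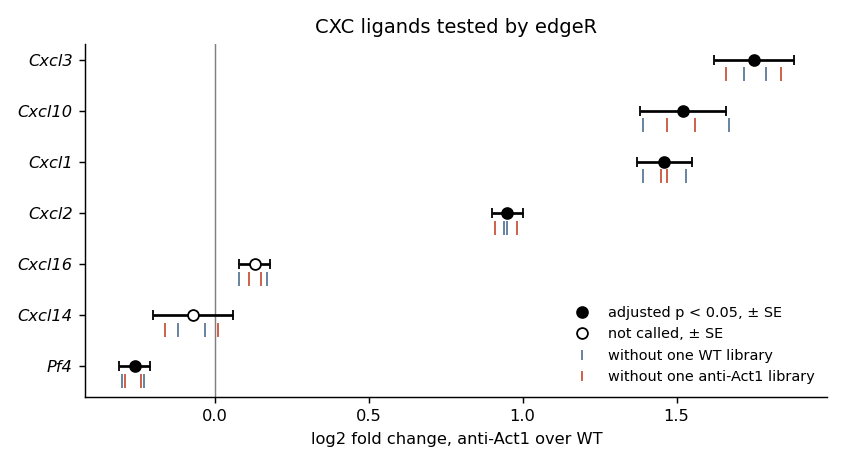
Log2 fold change (anti-Act1 over WT) of the 7 CXC ligands tested by edgeR, with bars of 1 SE, filled symbols for adjusted p under 0.05 and short lines for the fits without 1 library. Cxcl1, Cxcl3 and Cxcl10 stay above 1.3 in all of these fits and Cxcl2 lies between 0.91 and 0.98, while those of Cxcl14 reach 0.01.

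The calls of the 4 ligands that rose held in all 13 alternative fits. Over them the log2 fold change ran from 1.33 to 1.53 for Cxcl1, 0.91 to 0.98 for Cxcl2, 1.49 to 1.84 for Cxcl3 and 1.24 to 1.67 for Cxcl10. The highest adjusted p over those fits was 0.00844, for Cxcl10 in limma without a filter.

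Ratios of FPKM within a library show which ligands moved apart, and with 2 libraries against 2 an exact permutation test cannot go below p = 0.333, the value of each ratio below that did not overlap. Cxcl2 exceeded Cxcl3 21 and 20.1 times in WT and 12.8 and 10.7 times in anti-Act1. The ratio of Cxcl1 to Cxcl2 was 0.105 and 0.116 in WT and 0.155 and 0.161 in anti-Act1. Cxcl2 thus had the smallest fold change of the 3 ELR ligands tested among the 10. The ratio of Cxcl1 to Cxcl3 was 2.21 and 2.33 in WT and 1.99 and 1.73 in anti-Act1, and their log2 fold changes differed by -0.30, with an SE of 0.16 if the errors of both fits are taken as independent, which is under 2 SE.

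The ratios of Cxcl1 and Cxcl3 to Cxcl10 did not separate the groups. The ratio of Cxcl1 to Cxcl10 was 2.91 and 2.64 in WT and 2.58 and 2.72 in anti-Act1, and that of Cxcl3 to Cxcl10 was 1.32 and 1.13 against 1.30 and 1.57. The exact permutation p was 0.667 for each. Between Cxcl3 and Cxcl10 the log2 fold changes differed by 0.24, with an SE of 0.19 if the errors of both fits are taken as independent. Pf4 exceeded Cxcl2 13.5 and 12.7 times in WT and 5.61 and 5.72 times in anti-Act1. Cxcl16 exceeded Cxcl2 2.10 and 1.97 times in WT and 1.11 and 1.20 times in anti-Act1. Cxcl2 thus drew closer to Pf4 and Cxcl16 in level, while it moved away from Cxcl14, which it exceeded 16.6 and 17.7 times in WT and 33.8 and 36.0 times in anti-Act1.

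Summed over the 10 ligands, FPKM was 1215 and 1164 in WT and 1141 and 1097 in anti-Act1, so the total was not higher in anti-Act1. Its composition differed. The ELR ligands made up 6.86% and 7.31% of the sum in WT and 15.3% and 15.2% in anti-Act1, with means of 7.08% ± 0.319 and 15.3% ± 0.0964 (SD, n = 2 each). Cxcl2 alone made up 5.95% and 6.27% in WT and 12.4% and 12.1% in anti-Act1. The interferon-induced ligands remained a small share, 0.220% and 0.277% against 0.750% and 0.722%.

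Pf4 held 80.1% and 79.7% of the sum in WT and 69.8% and 69.3% in anti-Act1, and Cxcl16 held 12.5% and 12.3% against 13.8% and 14.5%. None of these shares overlapped between the groups, and each had the smallest exact permutation p of 0.333. The difference in the ELR share was 8.17 percentage points, and it was 14.8 points when Pf4 was left out of the sum.

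**Figure D4:**
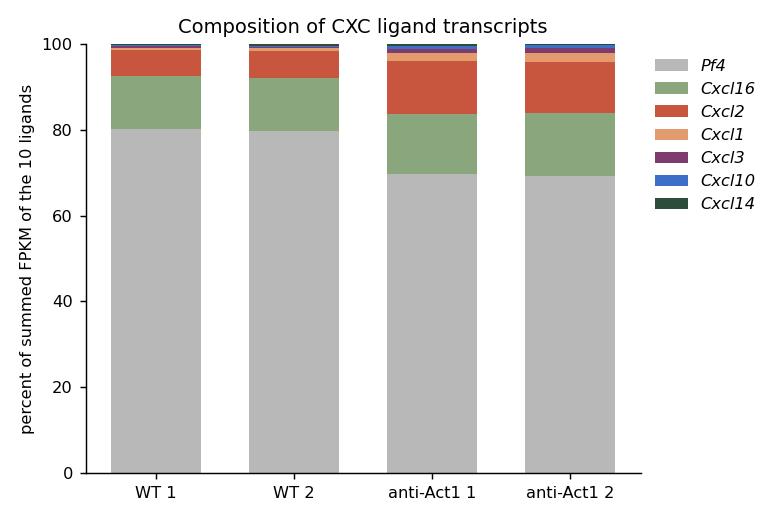
Percent of the summed FPKM of the 10 CXC ligands held by each ligand in each of the 4 libraries, as stacked bars from 0 to 100. The part of Pf4 is smaller and that of Cxcl2 larger in both anti-Act1 libraries, and Cxcl5, Cxcl9 and Cxcl12 are too small to be drawn.

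The receptors were examined in the same libraries. The counts of each list below are to be read against the 10.9% of all genes tested that were called higher and the 9.76% called lower. Of 8 CXC receptors, 5 were tested, 1 was called higher and 0 lower, and their median log2 fold change was 0.06. Ackr3, an atypical receptor that removes Cxcl12, rose from 16.7 ± 1.06 to 27.4 ± 2.04 CPM (SD, n = 2 each; log2 fold change 0.71, SE 0.08, edgeR adjusted p = 8.88e-10). Cxcr4, the signaling receptor of Cxcl12, was the most abundant, with 395 ± 1.35 and 412 ± 12.9 CPM (SD, n = 2 each; adjusted p = 0.450 by edgeR). Cxcr3, the receptor of Cxcl9 and Cxcl10, had 265 and 292 counts in WT and 165 and 189 in anti-Act1 (log2 fold change -0.38, SE 0.17, adjusted p = 0.117). Its log2 fold change was -0.57 without anti-Act1 replicate 2 (adjusted p = 0.0487) and -0.20 without anti-Act1 replicate 1 (adjusted p = 0.622). Cxcr1 and Cxcr2, the receptors of the ELR ligands, had at most 7 counts in any library.

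Proteases cut CXC ligands or release them from the cell. Of 8 tested, 4 were called higher and 0 lower, with a median log2 fold change of 0.17. Mmp9, a gelatinase that trims ELR ligands, rose from 13.9 ± 1.78 to 27.1 ± 1.97 CPM (SD, n = 2 each; log2 fold change 0.96, SE 0.08, edgeR adjusted p = 9.95e-13). Mmp12, the macrophage elastase, rose from 2282 ± 42.8 to 2834 ± 83.0 CPM (log2 fold change 0.31, adjusted p = 2.11e-06; 0.0634 in limma without a filter), and Mmp14 by 0.26 on the log2 scale (adjusted p = 0.000127). The fourth was Adam17, a sheddase (0.22, adjusted p = 0.00065). Mmp8, which also trims ELR ligands, was abundant with 526 ± 9.82 and 533 ± 11.5 CPM and was not called (adjusted p = 0.844).

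Of 12 regulators of AU-rich chemokine mRNA, 1 was called higher and 0 lower, with a median log2 fold change of -0.06. The one called was Zc3h12a, which encodes the RNase regnase-1, from 36.1 ± 0.513 to 49.5 ± 0.0995 CPM (SD, n = 2 each; log2 fold change 0.45, SE 0.06, edgeR adjusted p = 1.52e-07). The decay factors Zfp36l2 and Zfp36l1, the most abundant of the list, had log2 fold changes of -0.06 each (adjusted p = 0.458 and 0.475). Zfp36, which encodes tristetraprolin, had 208 and 211 CPM in WT and 193 and 190.5 in anti-Act1. It was not called (log2 fold change -0.13, SE 0.05, edgeR adjusted p = 0.0656), but was called in 4 of the 13 alternative fits. Of 10 genes of the IL-17 receptor and Act1 partners, 2 were called higher and 0 lower, near the 20.7% of all genes called in either direction, with a median of 0.03. These were the ubiquitin ligase Traf6 (0.43, SE 0.06, adjusted p = 3.36e-08) and the adaptor Traf3 (0.29, adjusted p = 0.000398; 0.118 in limma without a filter), while Tab2 and Map3k7 were not called.

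Of 14 NF-κB subunits and inhibitors, 8 were called higher and 1 lower, with a median log2 fold change of 0.25. Among those called higher, Nfkb1 (0.15, edgeR adjusted p = 0.0465) was called in only 3 of the 13 alternative fits. One fit that lost the call was edgeR without a filter (adjusted p = 0.057). The 3 largest rises were in inhibitors of the pathway that are also its targets, Nfkbia (0.71, SE 0.05, edgeR adjusted p = 9.21e-15), Nfkbie (0.65, adjusted p = 4.64e-10) and Tnfaip3 (0.63, adjusted p = 5.31e-13). Ikbkb, which encodes a kinase that releases NF-κB, was lower (-0.15, adjusted p = 0.0325) but was not called in any fit without 1 library (adjusted p = 0.0603 to 0.311), and Rela, the subunit p65, was not called (-0.02, adjusted p = 0.868). Of 15 interferon signaling genes, 4 were called higher and 1 lower, with a median of 0.04. Ifnb1 had 4 and 0 counts in WT and 10 and 16 in anti-Act1 (2.89, SE 0.97, adjusted p = 0.0264), a value that rests on few counts and was not called without WT replicate 2 (adjusted p = 0.317) or anti-Act1 replicate 1 (0.0637). Irf7, a factor of the interferon response, rose by 0.46 (adjusted p = 4.59e-10) and the receptor chain Ifnar2 by 0.22, while Ifngr1, a receptor chain for interferon-γ, was lower (-0.15, adjusted p = 0.0230). The call of Ifngr1 was lost without anti-Act1 replicate 1 (adjusted p = 0.142) or 2 (0.176).

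**Figure D5:**
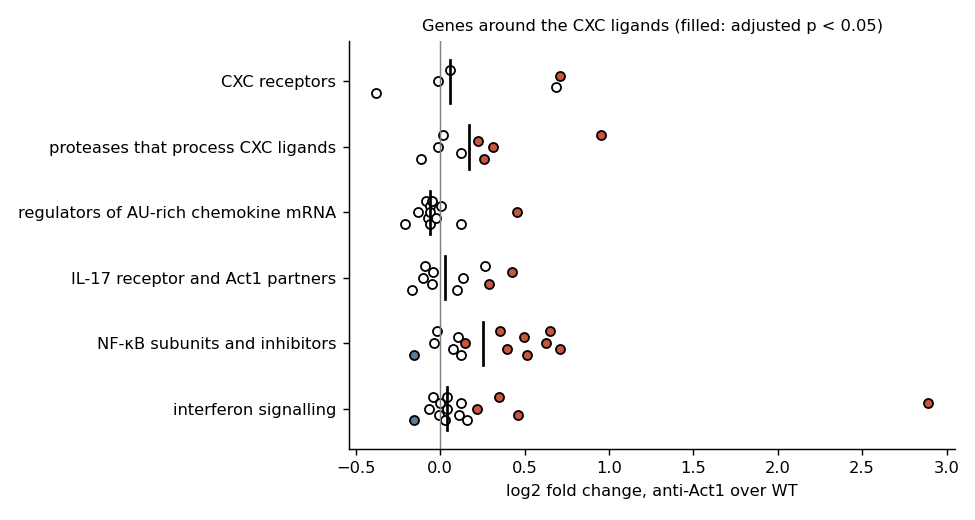
Log2 fold change (anti-Act1 over WT) of the tested genes in 6 lists around the CXC ligands, 1 point per gene, filled for adjusted p under 0.05 and with a vertical line at each median. The medians lie between -0.06 and 0.25, and Ifnb1 stands farthest to the right at 2.89.

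Neutrophils are the cells that the ELR ligands attract, and the marrow from which the macrophages were grown contains them. Their 9 markers summed to 7.68 and 7.46 CPM in WT and 7.64 and 6.67 in anti-Act1, which overlapped. Of 7 tested, S100a8 was called higher (log2 fold change 0.66, edgeR adjusted p = 0.000564) and S100a9, Ltf, Ngp and Retnlg lower. S100a8 was the most abundant of the list, with 3.61 and 3.74 CPM in WT and 6.09 and 5.55 in anti-Act1. S100a9 had 1.83 and 1.55 CPM in WT and 0.81 and 0.44 in anti-Act1. The sum therefore does not show the lower values of the markers that fell. Without anti-Act1 replicate 2, Ltf, Ngp and Retnlg were not called (adjusted p = 0.125, 0.0635 and 0.0806), nor was Ltf without WT replicate 2 (0.144). The markers Ly6g and Mpo were at 0 in both anti-Act1 libraries and had at most 13 counts in WT. Elane had 12 and 15 counts in WT and 2 and 9 in anti-Act1, and Camp had 18 and 9 against 14 and 12. Neither Elane nor Camp was called (edgeR adjusted p = 0.415 and 0.874). The part of neutrophil RNA in the ligand values was not tested.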

How the data were processed

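Total RNA of 4 macrophage libraries (NEBNext Ultra, not described as strand-marking) was sequenced as read pairs. TopHat was the aligner. The authors deposited whole counts per gene, not normalized, and also deposited FPKM values, each a count over gene length and the total of its column. The submitters' processing notes name Bowtie 0.12.2, HTSeq 0.6.1 and 2 genome builds of the mouse without their roles. Of 21878 genes listed, 6383 were at 0 in all libraries, 27 names had been turned into dates, and 4 lines carried a repeated name.

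After TMM scaling and the filter filterByExpr, condition was the only term of the model fitted to counts in edgeR 4.0.16 (R 4.3.3), with the two-sided quasi-likelihood F test and Benjamini-Hochberg adjustment over all 12494 genes tested. Genes were called at an adjusted p under 0.05. CPM are counts over the TMM-scaled library size, and the SE is the log2 fold change divided by the square root of F. Levels of different genes were compared on deposited FPKM. Replicates differed beyond sampling noise (chi-square per degree of freedom 10.8 in WT and 7.39 in anti-Act1). The test script was checked on simulated counts. Genes named were the 10 ligands, Traf3ip2 and, of each list, at most 3 called with the largest change and 2 others of highest CPM. Cxcr3, Cxcr1, Cxcr2, Itga2b, Ddx3y, Zfp36, genes that overlap a ligand and markers were added after their values were seen. Nfkb1, Ifnar2 and Cxcl15 were also named outside this rule. Not every gene under this rule is named here. Members and lists were chosen with earlier results of these data known. The search of 3′ untranslated regions was added after seeing the data.

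Alternatives were DESeq2 1.42.0, DESeq2 size factors with edgeR, library totals alone as scaling, all genes unfiltered, a minimum of 10 counts per library, a replicate block, limma-trend 3.58.1 on log2(FPKM + 1) and log2(FPKM + 0.1), filtered at 1 FPKM in 2 libraries or, with the former, unfiltered, and each library left out. Protein sequences were not used here.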

Additional observations from a re-analysis of the deposited data

How the results depend on the processing

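The number of genes called was 2586, and it was 1091 in limma on log2(FPKM + 1) without a filter and 1671 to 2543 without 1 library, with the lowest for anti-Act1 replicate 2 and 1712 for anti-Act1 replicate 1. Ligands called higher numbered 4 in all fits with all libraries and 4 to 5 without 1 library, and those called lower 1, but 0 in limma without a filter. The log2 fold change of Cxcl14 ran from -0.16 to 0.01 without 1 library, the latter when anti-Act1 replicate 2 was left out. The AU-rich list had 2 calls by DESeq2 and 3 without composition normalization. The ELR share differed by 14.8 points without Pf4 in the sum. The cause of these changes was not tested. Same-numbered libraries did not deviate together (correlation -0.0345). With 2 libraries per group, this cannot exclude that the numbers pair the samples with a small shared effect. With the replicate block, 2406 genes were called, 2367 of them shared, with 4 ligands higher and 1 lower. The 3 ligands with at most 10 counts per library are limited by depth.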
